A study of Mus musculus with 6 samples.

Results

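Interferon-stimulated genes, the genes that cells switch on when interferons bind their receptors, were compared between naive B cells and germinal center (GC) B cells sorted from the Peyer's patches of mice. The 38 members were taken by symbol from a list of well-known interferon targets, and all 38 were found among the 39179 Ensembl gene identifiers of the expression table. The members are defined by their names and not by a threshold on these values, although the list was drawn up with earlier results of the data known. Of the 38 members, 35 reached a level of at least 1 TPM (transcripts of the gene in every 1000000 transcripts, a length-corrected unit) in at least 3 of the 6 samples and were tested, whereas Ifit1, Rsad2 and Ifi44 did not.

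Peyer's patches line the small intestine and hold chronic GCs driven by gut antigens, the sites where activated B cells proliferate and diversify their antibody genes. The samples came from ileal Peyer's patches of wild-type C57BL/6 female mice aged 12 wk that were littermates, with no allele altered and no treatment given in either group. GC B cells were sorted as Fas+GL7+ B cells and naive, or resting, B cells as Fas-GL7- B cells. Both populations were profiled by RNA-Seq in 3 replicates, which were pools of several mice. Among B cells the naive gate selected only for the absence of Fas and GL7, so that other B cells without these surface markers could enter it. P-values therefore measure the spread between pools, not between single mice.

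Type I interferons bind a receptor made of IFNAR1 and IFNAR2, whose kinases JAK1 and TYK2 phosphorylate STAT proteins. STAT2 and IRF9 are subunits of the complex ISGF3, which binds interferon-stimulated response elements near the start sites of its target genes. The targets encode sensors of viral nucleic acids, proteins that block viral RNA and protein synthesis, GTPases that act on intracellular microbes, and regulators that adjust the response itself, and many of them are expressed at a low level without infection.

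To show the sequence that ISGF3 recognizes, promoter windows from 250 bases before to 50 bases after the annotated start were read from RefSeq for mouse build GRCm38.p6. Of the 38 members, 28 had such a window, and Dhx58, Ifi27l2a, Ly6e, Mx1, Oas2, Parp14, Parp9, Rtp4, Usp18 and Zbp1 did not. The windows were searched for the core of the response element, written as GAAA, any 2 bases and GAAA, or its reverse complement, TTTC, any 2 bases and TTTC, with overlapping matches allowed. It was found for 15 of the 28 members (53.6%), against 1079 of 27025 genes with a window (3.99%). Among members with a window the motif was present for 10 of 20 that were lower in GC B cells, for 3 of 5 that passed no threshold and for 2 of 3 that were not tested. These counts include Ddx58, lower in GC B cells, and Eif2ak2 and Ifih1, which passed no threshold, whose only match lay after the start. Irgm1, Igtp, Oas1a, Ifit3 and Bst2, which were lower in GC B cells, and Isg15, which passed no threshold, are shown with the motif in capitals, 5′ to 3′ on the strand of the gene.
Irgm1 (chr11:48871421-48871480, minus strand): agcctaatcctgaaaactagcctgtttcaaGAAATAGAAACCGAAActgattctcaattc
Igtp (chr11:58199492-58199555, plus strand): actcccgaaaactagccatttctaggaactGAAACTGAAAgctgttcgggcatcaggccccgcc
Oas1a (chr5:120907526-120907575, minus strand): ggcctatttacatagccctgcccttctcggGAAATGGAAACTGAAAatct
Ifit3 (chr19:34583343-34583446, plus strand): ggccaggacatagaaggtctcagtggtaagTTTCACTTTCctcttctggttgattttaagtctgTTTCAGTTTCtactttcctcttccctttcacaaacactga
Bst2 (chr8:71537557-71537632, minus strand): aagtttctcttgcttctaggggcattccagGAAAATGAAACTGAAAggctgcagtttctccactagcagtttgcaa
Isg15 (chr4:156200845-156200926, minus strand): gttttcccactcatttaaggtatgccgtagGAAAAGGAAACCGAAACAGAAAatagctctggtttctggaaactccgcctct
The motif nearest to the start began 14 bases before it in Oas1a, 24 in Irgm1 and 34 in Igtp, and those of Ifit3 lay 156 and 122 bases before it. Distances refer to the start used for each window. For Ifit3 and Oas1a that start lies inside the annotated gene, whose 5′ end is at chr19:34583119 and chr5:120907544. Isg15 held 3 overlapping copies between 78 and 57 bases before its start. A match describes letters in a window and not binding.

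The pools carried the identity of their gates. All 6 GC markers tested, among them Fas and Bcl6, were higher in GC B cells, and all 5 naive markers tested, among them Klf2 and Ccr7, were lower. Estimated depth was 10050000 to 11000000 reads in the GC pools and 9700000 to 16200000 in the naive pools, with naive replicate 2 the deepest. These depths were read from the steps between low values, of which only 63.5% to 70.8% lay within 0.1 of a whole read, so that depths are approximate and reads were not tested as counts.

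Markers of other cell types were present at unequal levels. The 7 markers of intestinal epithelium, a tissue that itself responds to interferon, summed to 46.8–103 TPM in GC and 119.9–153.6 TPM in naive pools. Of the 6 tested, 4 were lower in GC B cells (30.1% of all genes), of which Fabp2 had overlapping pools. Krt18 was higher in GC B cells (3.23 against 1.83 TPM, log2 fold change 0.59), and Krt19, whose pools overlapped, was not called. T cell markers (8) summed to 2.59–9.69 TPM in GC and 3.31–4.74 TPM in naive pools. The 8 macrophage and dendritic cell markers summed to 45.2–50.4 TPM in GC and 11.4–16.5 TPM in naive pools. Most of the GC sum was Flt3 (mean 31.4 TPM in GC and 1.24 TPM in naive pools) and Cd68 (13.1 and 5.88 TPM), both higher in GC B cells. Other genes of that list went the way of the members: Itgam (mean 0.106 TPM in GC and 1.02 TPM in naive pools), Adgre1 (0.0461 and 0.696 TPM) and Lyz2 (1.28 and 3.30 TPM) were lower in each GC pool than in any naive pool, whereas Csf1r was at 0.0692 to 0.279 TPM with overlapping pools. Of these, only Lyz2 passed the filter, and it was not called (limma adjusted p = 0.0618).

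Plasmacytoid dendritic cells are major producers of type I interferon. Their 6 markers, which include the members Bst2 and Irf7, summed to 132–142 TPM in GC and 104–134 TPM in naive pools. In GC pools most of this was Tcf4, which was higher there than in naive pools (95.6 against 43.7 TPM, log2 fold change 1.12). In naive pools the members Bst2 (mean 45.1 TPM) and Irf7 (30.2 TPM) made up most of the sum. Ccr9 was at 0.0692–0.138 TPM in GC and 0.365–0.424 TPM in naive pools, without overlap, and Siglech (0 to 0.209 TPM) and Klk1 (0 to 0.401 TPM) overlapped. The 4 plasma cell markers summed to 109–113 TPM in GC and 118–132 TPM in naive pools, mostly Xbp1, and went different ways. Prdm1 was higher in GC B cells (5.01 against 0.955 TPM, log2 fold change 1.62). Sdc1 (1.51 against 3.19 TPM, log2 fold change -0.75) and Xbp1 (-0.20) were lower, while Tnfrsf17 was at 0 in all pools but GC replicate 1. The part of other cell types in the differences described for the members was not tested.

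Interferon-stimulated genes were mostly lower in GC B cells. Summed over the 38 members, expression was 899 to 933 TPM in the GC pools and 2237 to 2372 TPM in the naive pools, and the ranges did not overlap. Ly6e alone made up 49.1% to 57.7% of these sums, and without it the members summed to 427–475 TPM in GC and 945–1130 TPM in naive pools. In each naive pool 35 or 36 members reached 1 TPM and 22 to 25 reached 10 TPM, against 26 or 27 and 16 in each GC pool. Naive B cells thus expressed most of the list without any treatment, at a median of 15.8 to 19.9 TPM per member against 4.41 to 6.88 TPM in GC B cells. In bulk samples, fewer cells that express a gene and less RNA of it per cell cannot be told apart.

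**Figure D1:**
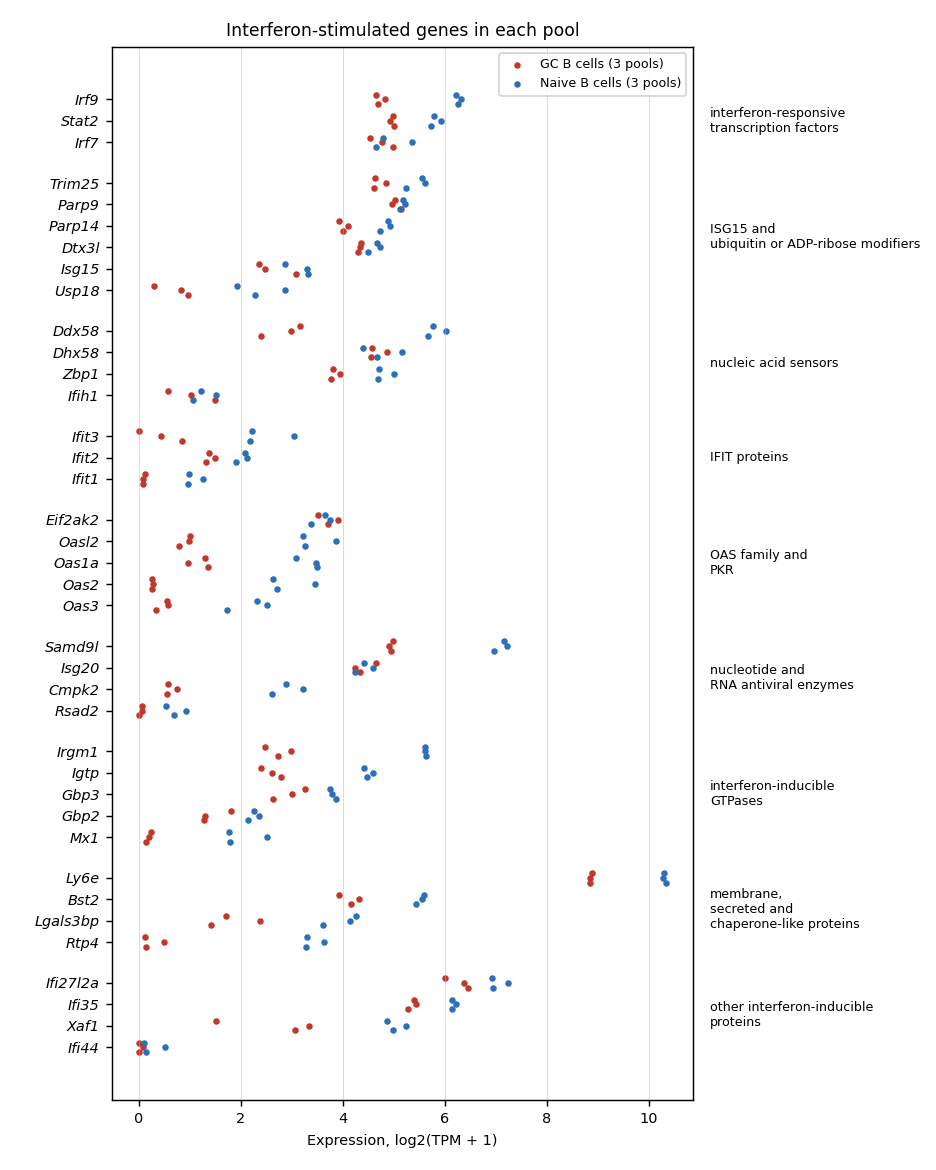
Expression of the 38 members in each pool, as log2(TPM + 1) on the horizontal axis, grouped by role, with 1 point per pool (3 GC and 3 naive). The naive points lie to the right of the GC points for most members. Those of Irf7, Dhx58, Isg20, Eif2ak2, Isg15, Parp9 and Ifih1 overlap between the groups.

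The 2 populations were compared with limma on log2(TPM + 1), and genes were called at a Benjamini-Hochberg adjusted p under 0.05 over all 12785 genes tested. Of the 35 members tested, 28 were lower in GC B cells, against a background of 30.1% of all genes, and 7 passed no threshold (65.6% of all genes were called in either direction). None was higher, against 35.5% of all genes, and at an unadjusted p under 0.05 the number higher was likewise 0. The median log2 fold change of the members, GC minus naive, was -1.39, and that of all genes tested was 0.03. The change was below -1 for 18 of the 28 members and below -2 for 11 (background 11.2% and 3.68% of all genes). In the same 28 members the highest GC pool lay below the lowest naive pool (background 32.8%). Because log2(TPM + 1) compresses low values, these fold changes understate the difference of genes near or below 1 TPM.

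The filter bore on these counts, since 7 members (Cmpk2, Ifit3, Mx1, Oas2, Oas3, Rtp4 and Usp18) were under 1 TPM in every GC pool and passed only through naive pools. Of the other 28 tested, 21 were lower in GC B cells. The background of 30.1% includes genes that passed only through naive pools, and a share without such genes was not computed. Without a filter, 30 of the 38 members were lower, against 18.7% of 20845 genes above 0 in any pool, and 0 were higher, against 22.7%. In 31 of the 38 the pools did not overlap (background 23.3%).

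**Figure D2:**
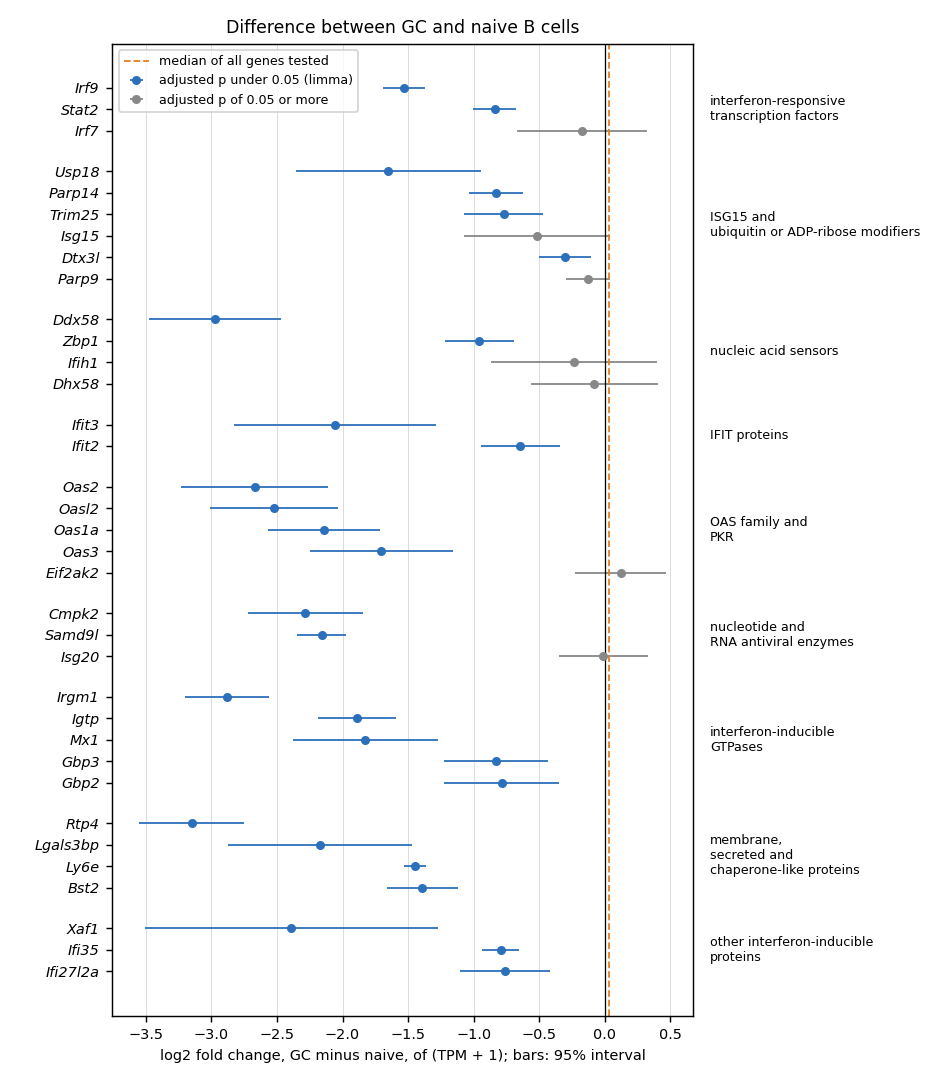
Difference between GC and naive B cells for the 35 members tested, as the log2 fold change of (TPM + 1), GC minus naive, with 95% intervals, grouped by role. The 28 members called lower lie left of 0, and the intervals of the other 7 include 0. The dashed line is the median of all genes tested, 0.03.

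The transcription factors of the response were lower in part. Irf9, the DNA-binding subunit of ISGF3, was at 24.2, 27.5 and 24.9 TPM in GC replicates 1 to 3 and at 73.1, 78.1 and 75.7 TPM in the naive pools. It was 2.96 times higher in naive B cells (log2 fold change -1.53, SE 0.07, limma adjusted p = 4.12e-06), with a gap between the groups far wider than the spread within either. Stat2, its partner in the complex, was at 30.7, 29.2 and 31.0 TPM in GC and 54.0, 59.3 and 52.0 TPM in naive pools (log2 fold change -0.84, SE 0.07, limma adjusted p = 6.66e-05). Irf7, which drives the production of type I interferon once it is induced, was at 22.1, 26.1 and 30.6 TPM in GC pools and at 26.6, 39.8 and 24.2 TPM in naive pools. These ranges overlapped, and the difference was not detected (log2 fold change -0.17, 95% interval -0.67 to 0.32, limma adjusted p = 0.490).

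Of 6 modifiers that act through ISG15, ubiquitin or ADP-ribose, 4 were lower in GC B cells (30.1% of all genes). Usp18, which removes ISG15 from proteins and restrains signalling at IFNAR2, changed most: it was at 0.234, 0.775 and 0.962 TPM in GC pools and at 2.79, 6.25 and 3.82 TPM in naive pools (log2 fold change -1.65, SE 0.29, limma adjusted p = 0.00261). All 3 naive pools exceeded all GC pools, though naive replicate 2 stood well above the other naive pools. Trim25, a ubiquitin ligase that acts on the sensor RIG-I, was at 23.7, 27.8 and 23.3 TPM in GC and 45.7, 48.1 and 36.5 TPM in naive pools (log2 fold change -0.77, SE 0.12). The ubiquitin-like protein Isg15 itself was at 4.13, 4.54 and 7.51 TPM in GC and 6.32, 8.80 and 8.92 TPM in naive pools. GC replicate 3 lay within the naive range, and Isg15 passed no threshold (log2 fold change -0.52, limma adjusted p = 0.0892), whereas it was called when that pool was left out (-0.74, adjusted p = 0.0147).

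Parp14, Dtx3l and Parp9 lie side by side on chromosome 16 (chr16:35831892-35972621, GRCm38.p6), and their differences were unequal. Parp14, an ADP-ribosyltransferase, was 15.1 ± 0.978 TPM in the GC and 27.7 ± 2.02 TPM in the naive pools (mean ± SD, n = 3 pools each; log2 fold change -0.83). The ubiquitin ligase Dtx3l was at 18.5–19.4 TPM in GC and 21.4–25.4 TPM in naive pools (log2 fold change -0.30, limma adjusted p = 0.0165), and lost its call without GC replicate 3 (adjusted p = 0.0533), naive replicate 1 (0.0552) or naive replicate 2 (0.0517). Its partner Parp9 was at 31.6, 30.2 and 34.3 TPM in GC and at 35.2, 36.2 and 33.8 TPM in naive pools, which overlapped (log2 fold change -0.13, limma adjusted p = 0.145). Parp9 was called lower under other scalings, with an adjusted p of 0.0358 on FPKM as deposited, 0.0492 with median-of-ratios scaling and 0.0205 after quantile normalization. The annotated Dtx3l and Parp9 genes share 558 bases at chr16:35938470-35939027. Whether the counting used strand is not given in the sources used here, so it is not known how any reads there were divided between them.

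Among the nucleic acid sensors, Ddx58 stood apart. Ddx58, which encodes the RNA sensor RIG-I, was at 7.94, 6.87 and 4.29 TPM in GC pools and at 53.7, 63.6 and 49.96 TPM in naive pools. It was 8.76 times higher in naive B cells (log2 fold change -2.97, SE 0.21, limma adjusted p = 3.41e-05). The related helicases behaved differently: Ifih1, the sensor MDA5, was at 0.496–1.81 TPM in GC and 1.08–1.88 TPM in naive pools (log2 fold change -0.23, 95% interval -0.87 to 0.40). Dhx58, the regulatory helicase LGP2, was at 22.5–28.3 TPM and 20.2–34.6 TPM (log2 fold change -0.08, 95% interval -0.56 to 0.41). Neither was called, and both ranges overlapped. Zbp1, which senses left-handed nucleic acids, was 13.3 ± 0.850 TPM in the GC and 26.96 ± 3.55 TPM in the naive pools (log2 fold change -0.96, limma adjusted p = 0.000327). Of the 4 sensors, 2 were called lower in GC B cells (30.1% of all genes).

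Of the 5 members of the OAS family and PKR, 4 were lower in GC B cells (background 30.1%). Oas2, which makes the oligoadenylate that activates the ribonuclease RNase L, was at 0.193, 0.208 and 0.195 TPM in GC pools and at 5.22, 9.90 and 5.55 TPM in naive pools (log2 fold change -2.67, SE 0.23, limma adjusted p = 9.40e-05). Its neighbours Oas1a (log2 fold change -2.14) and Oas3 (-1.70), which lie with it at chr5:120730333-120907544, and Oasl2 on the same chromosome (-2.52) were lower too. Oas1a was at 0.941–1.56 TPM in GC and 7.41–10.3 TPM in naive pools, and Oasl2 at 0.739–1.02 and 8.26–13.6 TPM. Eif2ak2, the kinase PKR that halts translation, did not share this: it was at 10.4, 13.9 and 12.0 TPM in GC and 11.5, 12.4 and 9.36 TPM in naive pools (log2 fold change 0.12, 95% interval -0.23 to 0.47). Reads of the Oas1 copies are divided by the quantification model, so the level of Oas1a is less certain.

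The IFIT proteins, which bind viral RNA, were low in both populations. Ifit3 was at 0, 0.346 and 0.808 TPM in GC pools and at 3.63, 7.28 and 3.56 TPM in naive pools (log2 fold change -2.06, SE 0.32, limma adjusted p = 0.00142), and it has a near-identical copy, Ifit3b. Ifit2 was 1.63 ± 0.166 TPM in the GC and 3.11 ± 0.319 TPM in the naive pools (log2 fold change -0.64). Ifit1 was not tested, with 0.0965, 0.0554 and 0.0557 TPM in GC and 0.986, 1.40 and 0.955 TPM in naive pools. In all 3 genes, which lie together at chr19:34550550-34650009, every GC pool was below every naive pool (23.3% of all genes above 0 in any pool).

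Of the nucleotide and RNA enzymes, Cmpk2, a mitochondrial nucleotide kinase, was at 0.496, 0.678 and 0.460 TPM in GC and 6.41, 8.34 and 5.11 TPM in naive pools (log2 fold change -2.28, SE 0.18, limma adjusted p = 6.41e-05). Rsad2, its neighbour at chr12:26442743-26479837, encodes viperin, which makes a chain-terminating nucleotide. It was at 0.0413, 0.0415 and 0 TPM in GC and 0.446, 0.890 and 0.620 TPM in naive pools and was not tested. Samd9l, a growth-restraining antiviral protein, was far more abundant. Its level was 30.8, 29.1 and 29.8 TPM in GC and 141, 147 and 123 TPM in naive pools, a 4.59-fold difference (log2 fold change -2.16, SE 0.08, limma adjusted p = 1.69e-06). Isg20, an exonuclease, was at 24.0, 17.8 and 19.3 TPM in GC and at 20.4, 23.1 and 18.0 TPM in naive pools (log2 fold change -0.01, 95% interval -0.35 to 0.33), and the 2 groups overlapped throughout.

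All 5 interferon-inducible GTPases were lower in GC B cells (30.1% of all genes). Irgm1, which acts at membranes around intracellular bacteria, was at 4.55, 6.89 and 5.64 TPM in GC and at 47.8, 47.7 and 48.2 TPM in naive pools. The naive pools were nearly equal, and the 8.41-fold difference (log2 fold change -2.88, SE 0.13, limma adjusted p = 5.22e-06) was many times the spread. Igtp, of the same family, was at 4.27–5.92 TPM in GC and 20.3–23.0 TPM in naive pools (log2 fold change -1.89). The guanylate-binding proteins Gbp2 and Gbp3, neighbours at chr3:142560016-142638008, differed less, with log2 fold changes of -0.79 and -0.83. Gbp3 was 6.95 ± 1.67 TPM in the GC and 12.9 ± 0.652 TPM in the naive pools, and Gbp2 1.81 ± 0.618 and 3.78 ± 0.376 TPM. Mx1, of which C57BL/6 mice carry a truncated, nonfunctional form, was at 0.179, 0.152 and 0.0976 TPM in GC and 2.39, 4.68 and 2.45 TPM in naive pools (log2 fold change -1.83).

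The 4 members that encode membrane, secreted or chaperone-like proteins were all lower in GC B cells (30.1% of all genes). Ly6e, a lipid-anchored surface protein and the most abundant member, was at 473, 458 and 458 TPM in GC pools and at 1254, 1242 and 1291 TPM in naive pools. Replicates differed by a few percent, and the 2.73-fold difference had the smallest error of all members (log2 fold change -1.45, SE 0.03, limma adjusted p = 3.89e-07). Rtp4, a chaperone of membrane receptors, had the largest fold change of the list: it was at 0.0965, 0.401 and 0.0976 TPM in GC and 8.83, 11.4 and 8.71 TPM in naive pools (log2 fold change -3.15, SE 0.17, limma adjusted p = 9.82e-06). Bst2, or tetherin, which holds budding virions at the cell surface, was at 14.1, 18.8 and 16.9 TPM in GC and 47.3, 45.9 and 42.0 TPM in naive pools (log2 fold change -1.39, SE 0.11). Lgals3bp, a secreted glycoprotein, was 2.70 ± 1.32 TPM in the GC and 15.3 ± 3.70 TPM in the naive pools (log2 fold change -2.17). Bst2 also marks plasmacytoid dendritic cells, and of that list Ccr9, like Bst2, was lower in GC pools, Tcf4 was higher, and Siglech, Klk1 and Irf7 overlapped.

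Of the remaining members, Xaf1, which antagonizes an inhibitor of apoptosis, was at 1.87, 9.16 and 7.30 TPM in GC and 28.3, 36.6 and 30.7 TPM in naive pools (log2 fold change -2.39, SE 0.46, limma adjusted p = 0.00391). GC replicate 1 lay well below the other GC pools, which gave Xaf1 the widest error among the members. Ifi27l2a was at 62.7, 81.3 and 86.5 TPM in GC and at 120, 149 and 122 TPM in naive pools (log2 fold change -0.76, SE 0.14). Ifi35, a leucine-zipper protein, was at 40.8, 42.2 and 37.98 TPM in GC and 69.5, 73.0 and 69.3 TPM in naive pools (log2 fold change -0.79, SE 0.06). Both were among the 10 most abundant members, and neither overlapped between groups. Ifi44 did not exceed 0.438 TPM in any pool.

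**Figure D3:**
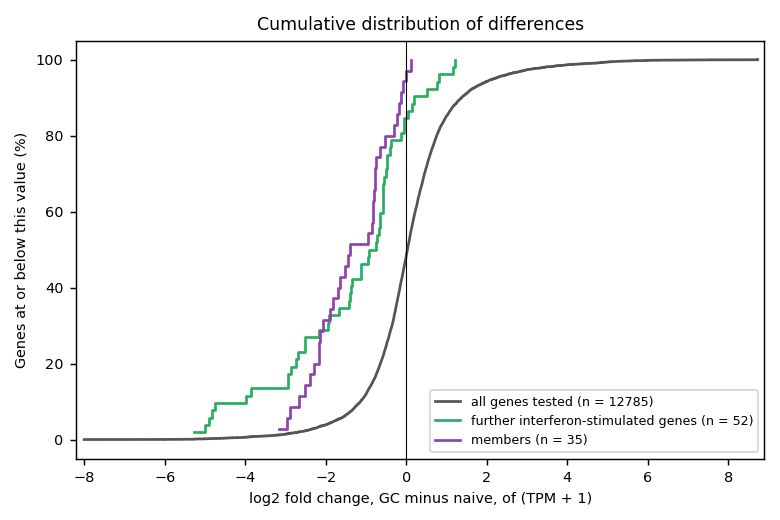
Cumulative distribution of the log2 fold change of (TPM + 1), GC minus naive, for the 35 members tested, for 52 further interferon-stimulated genes and for all 12785 genes tested. The curves of both lists lie to the left of that of all genes, with medians of -1.39 and -0.84 against 0.03, and the highest value of a member is 0.12.

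Most members were highest in the same naive pool. Naive replicate 2 had the highest of the 3 naive values in 28 of 35 members, against 44.1% of all genes tested, and replicate 1 in 2 and replicate 3 in 5. Its level was 2.02 times the mean of the other naive pools for Ifit3, 1.93 times for Mx1, 1.89 times for Usp18 and 1.84 times for Oas2, and it was 1.57 times for Irf7. For Irgm1 (0.993), Ly6e (0.976) and Gbp3 (0.976) it was close to the other pools. The ratio was at least 1.5 in 8 of 35 members (22.9%), against 5.10% of all genes, and among members at 1 to 10 TPM in naive B cells in 5 of 12 (41.7%), against 9.58% of genes at such levels. Naive replicate 2 was also the deepest pool by the estimate, at 16200000 reads. Its markers of intestinal epithelium were not the highest of the naive pools (Epcam 6.84 TPM against 11.6 and 6.96). Macrophage, dendritic and T cell markers went different ways. Itgam (1.23 TPM against 0.932 and 0.891), Adgre1, Cd3e and Cd3g were highest in this pool. Lyz2 (2.48 TPM against 5.28 and 2.13), Itgax, Flt3, Cd68, Cd3d and Cd4 were not. What these markers have to do with the members was not tested. With 3 pools there is no test of the difference of naive replicate 2. Without naive replicate 2, 27 members remained called lower in GC B cells, with the loss of Dtx3l, and none was higher.

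**Figure D4:**
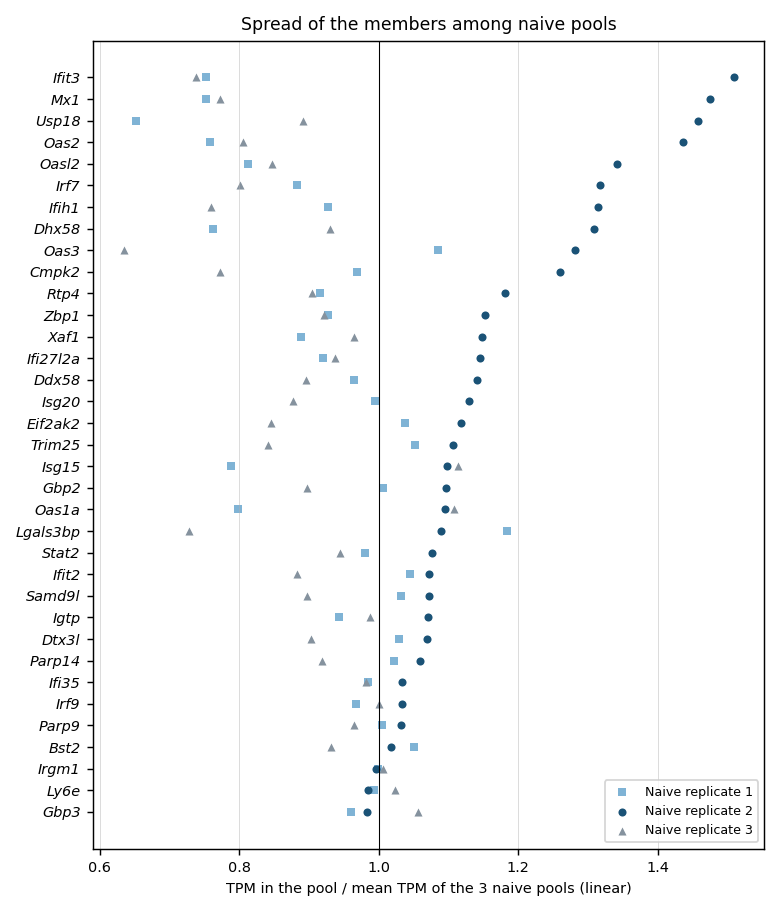
Level of each tested member in each naive pool divided by the mean of the 3 naive pools, on a linear axis. The points of naive replicate 2 lie to the right of 1 for most members, farthest for Ifit3, Mx1, Usp18 and Oas2, and the points of Irgm1 and Ly6e fall together near 1.

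Among the GC pools, replicate 2 was highest in 16 members (45.7%, against 34.2% of all genes), replicate 1 in 9 and replicate 3 in 10. Replicate 2 was lowest in 5 members and each of the other GC pools in 15. The median coefficient of variation of the members was 16.2% among GC pools and 13.2% among naive pools, against 8.35% and 9.79% over all genes tested. Of the epithelial markers, Fabp2 was highest in GC replicate 2 among the GC pools, at 65.4 TPM against 24.6 and 20.4 TPM. Epcam, Krt8, Vil1 and Cdh1 were also highest there, whereas Krt18 (3.78 TPM) and Krt19 (8.95 TPM) were highest in GC replicate 3. The bearing of these markers on the members was not tested.

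The genes that send and receive the signal were examined next. Of 21 interferon ligands sought, 14 were matched, and 12 of these were listed at 0 in all 6 pools, Ifnb1 among them. Ifnk did not exceed 0.400 TPM, and Ifng was at 0.108 and 0.328 TPM in 2 naive pools and at 0 elsewhere. Most receptor chains were lower in GC B cells. Ifnar1 was at 17.0, 16.1 and 15.6 TPM in GC and 62.6, 60.6 and 53.4 TPM in naive pools (log2 fold change -1.79, SE 0.08, limma adjusted p = 4.62e-06). Ifnar2 was at 5.76, 5.79 and 5.25 TPM in GC and 41.7, 34.9 and 38.6 TPM in naive pools (log2 fold change -2.58, SE 0.09, limma adjusted p = 1.79e-06). Both chains of the type I receptor therefore lay far below their naive level.

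The receptor for interferon γ differed by chain. Its signalling chain Ifngr2 was at 15.1, 18.0 and 15.4 TPM in GC and 104, 112 and 108 TPM in naive pools (log2 fold change -2.67), whereas its ligand-binding chain Ifngr1 was at 63.3–69.5 TPM and 72.6–79.8 TPM (log2 fold change -0.20, limma adjusted p = 0.0225) and lost its call without GC replicate 1, GC replicate 3, naive replicate 1 or naive replicate 2. The receptor for interferon λ moved in opposite directions: Il10rb, which it shares with other cytokine receptors, was 9.05 ± 1.16 TPM in the GC and 119 ± 2.31 TPM in the naive pools (log2 fold change -3.59). Its specific chain Ifnlr1 was at 7.90, 8.58 and 9.96 TPM in GC and 1.51, 1.56 and 1.23 TPM in naive pools (log2 fold change 2.01, limma adjusted p = 2.34e-05). Ifnlr1 was the only receptor chain higher in GC B cells.

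**Figure D5:**
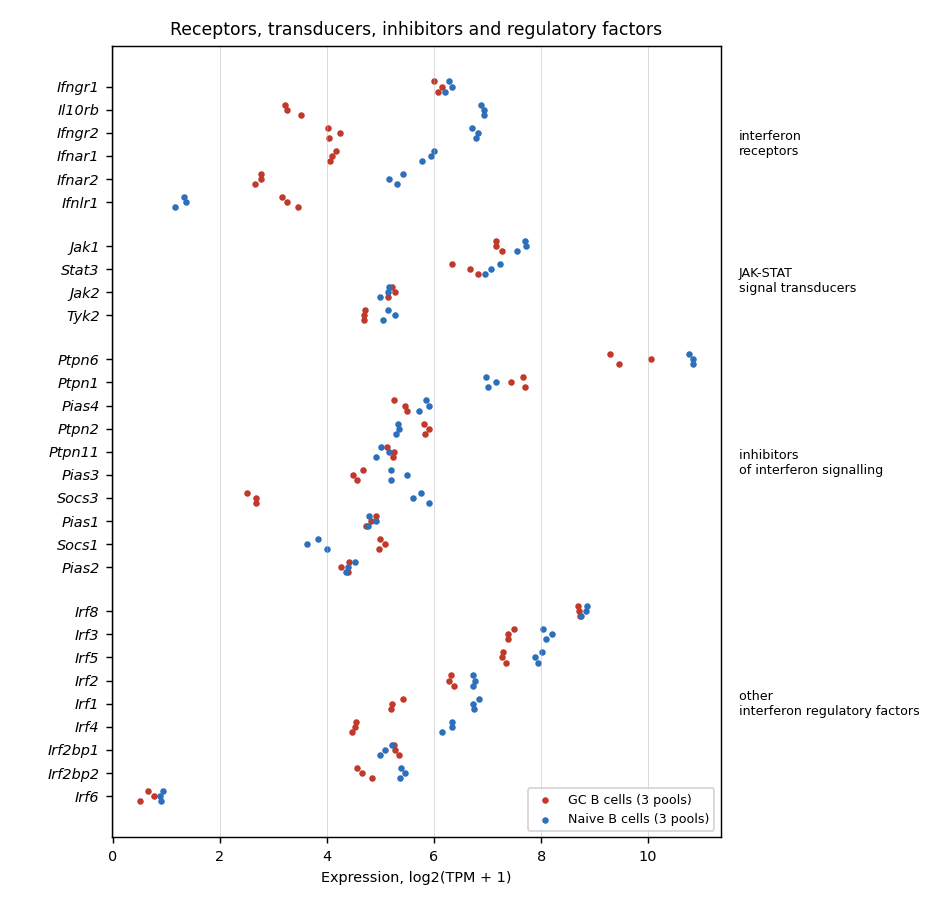
Expression of interferon receptors, 4 JAK-STAT transducers, inhibitors and other interferon regulatory factors in each pool, as log2(TPM + 1), with 1 point per pool. Il10rb, Ifngr2, Ifnar2 and Socs3 show the widest gaps with naive higher, and Ifnlr1 and Socs1 lie higher in GC B cells.

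The signal transducers described here differed less than most receptor chains. Jak1 (log2 fold change -0.47), Tyk2 (-0.45) and Stat3 (-0.48) were lower in GC B cells, and Stat3 lost its call without naive replicate 1 or naive replicate 2. Jak2, which serves the receptor for interferon γ, was 36.0 ± 1.65 TPM in the GC and 33.2 ± 2.20 TPM in the naive pools and passed no threshold.

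Of 10 inhibitors of the pathway, 4 were lower and 3 higher in GC B cells, shares near those of all genes (30.1% lower and 35.5% higher). Socs1, which blocks JAK kinases, was at 30.9, 32.9 and 30.3 TPM in GC and 13.1, 11.3 and 15.0 TPM in naive pools (log2 fold change 1.204, limma adjusted p = 0.000115). The phosphatases Ptpn1 (log2 fold change 0.55) and Ptpn2 (0.53), which act on JAK and STAT proteins, were higher too. Socs3, an inhibitor linked to other cytokine receptors, was at 4.70, 5.40 and 5.35 TPM in GC and 52.9, 47.8 and 59.1 TPM in naive pools (log2 fold change -3.14). Ptpn6 (-1.21), Pias3 (-0.72) and Pias4 (-0.42) were the other members of that list that were lower.

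Of 8 other interferon regulatory factors and their binding proteins tested, 6 were lower in GC B cells and 0 were higher (30.1% and 35.5% of all genes). The log2 fold change was -1.76 for Irf4, which also directs plasma cell formation, and -1.49 for Irf1, an activator induced by interferon γ. It was -0.72 for Irf2bp2, -0.70 for Irf3, which starts interferon production, -0.65 for Irf5 and -0.40 for Irf2. Irf8, at 410–422 TPM in GC and 426–464 TPM in naive pools, passed no threshold. Among 9 adaptors and kinases that link sensors to interferon production, 5 were lower (30.1% of all genes) and 0 higher, and of the 5 Traf3 (log2 fold change -0.42, limma adjusted p = 0.0453) lost its call without GC replicate 1 or 2 or without naive replicate 1 or 2. The widest difference was that of Tmem173, or STING, at 28.1 ± 1.56 TPM in the GC and 78.0 ± 2.60 TPM in the naive pools (log2 fold change -1.44). Mavs, the adaptor of RIG-I, was at 18.4–20.7 TPM in GC and 21.5–23.0 TPM in naive pools and was not called (log2 fold change -0.19, limma adjusted p = 0.0543), and neither was Myd88 (0.00).

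A further list of 62 interferon-stimulated genes outside the members matched 60, of which 52 were tested. In GC B cells 39 were lower (75%, against 30.1% of all genes) and 5 higher (35.5% of all genes), at a median log2 fold change of -0.84 (0.03 over all genes). The largest differences were those of Pml, which organizes nuclear bodies, at 3.43 ± 0.722 TPM in the GC and 169.9 ± 20.9 TPM in the naive pools (log2 fold change -5.28), of Ifi203 (-5.00) and of the giant GTPase Gvin1 (-4.89). In the other direction Herc3, which encodes a ubiquitin ligase, was at 99.5–116 TPM in GC and 43.9–47.1 TPM in naive pools (log2 fold change 1.202), followed by Gbp8 (1.17) and Ifit1bl1 (0.82). General B cell markers were not level either: Cd79a (log2 fold change -1.12), Cd79b (-0.54) and Pax5 (-0.31) were lower in GC B cells, and Ms4a1 (0.38) was higher.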

How the data were processed

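RNA-Seq libraries of 3 GC and 3 naive pools were made with a NEBNext Ultra kit. The submitters' notes name CASAVA 1.8, FastQC, cutadapt 1.9 for adapters, RSEM 1.2.25 and edgeR, and the authors quantified reads on the mouse transcriptome (NCBIm38). They deposited FPKM per gene and pool, and every column was used. The length RSEM gives each transcript enters every FPKM. Values were divided by their column total and multiplied to TPM, comparable between genes per length. TPM of at least 1 in at least 3 pools was required. log2(TPM + 1) was fitted with limma 3.58.1 in R 4.3.3 (lmFit, eBayes with trend, two-sided), with Benjamini-Hochberg adjustment over all genes tested, at adjusted p under 0.05. The fit was tested on simulated data. Symbols came from a gene-name table, which named 33398 of 39179 identifiers, and from RefSeq synonyms. Coordinates are from RefSeq (GRCm38.p6).

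The members and lists were chosen with earlier results of these data known. Values per pool are given for the member with the largest fold change in each role group and for the 10 with the highest mean TPM, and other genes were named as far as they bear on a group. Irf7 and Bst2 are both members and in the list of plasmacytoid dendritic cell markers. Alternatives covered the pseudocount, filters, FPKM as deposited, median-of-ratios and quantile scaling, a fit without trend, a replicate block and leaving out each pool. A correction for GC content and length, with and without the block, was chosen after seeing the data. Precision is limited by 3 pools per group, and intervals that need counts are not given. A few listed genes are not reported here.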

Additional observations from a re-analysis of the deposited data

How the results depend on the processing

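Between 22 (of 28 tested at 5 TPM or more) and 30 members were lower in GC B cells under the alternatives, and 0 were higher under each of them. At 5 TPM or more, 3261 of all 10277 genes were lower. Leaving out 1 pool gave 27 to 28 lower members, against 3390 to 3816 lower of all 12785 genes. Of 90 pathway genes, 60 to 64 were then lower and 9 to 11 higher. All 102 alternative counts lay within 1.5 times the reported ones. The direction changed only for members that passed no threshold. Over the fits that left out 1 pool, the log2 fold change ran from -0.31 to 0.036 for Irf7, from -0.25 to 0.13 for Dhx58 and from -0.13 to 0.078 for Isg20, and that of Eif2ak2 was -0.13 with the correction for GC content and length, with or without the replicate block. Over the 11031 genes that this correction covered, the median of all genes was 0.042 before it and -0.08 after it. The cause of these changes was not tested. The correction called Parp9 lower (adjusted p = 0.00973).

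Whether pools with the same replicate number were paired is not stated in the sources used here. Their deviations from the group means correlated weakly, at r = 0.08, 0.02 and 0.05. Each GC pool correlated best with the naive pool of its own number, whereas naive replicate 2 correlated best with GC replicate 3 (r = 0.03). Correlations this low do not decide the pairing. With the replicate block, 29 members were lower, Isg15 being added (adjusted p = 0.0422), as were 3618 of all genes, with 4342 higher, and Stat3 and Traf3 lost their calls, Traf3 also without the filter and without trend. Genes under 1 TPM rest on few reads at about 9700000 to 16200000 per pool, so that ratios of Rtp4, Oas2, Mx1 and Ifit3 are imprecise.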
